A study of Homo sapiens with 12 samples.

Results

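The heterogeneous nuclear ribonucleoproteins (hnRNPs) examined here were 10 genes: HNRNPA2B1, HNRNPC, HNRNPA1, HNRNPA3, HNRNPD, HNRNPU, HNRNPM, HNRNPL, HNRNPK and HNRNPH1. They were chosen by gene symbol, with the row of highest mean taken per symbol, and all 10 were found once each among the 22564 genes of the table. Total RNA was sequenced from A549 cells, a human line derived from a lung adenocarcinoma, carrying siRNA against YTHDC1 (siYTHDC1, 6 libraries) or a scrambled siRNA (siSCR, 6 libraries). Both groups were transfected at 40 nM for 48 to 72 h, the labels name no other treatment, and which YTHDC1 siRNA each library received is not given in them. YTHDC1 is a protein of the nucleus that binds N6-methyladenosine (m6A), the commonest methylation inside mRNA. Its own transcript stood at -71.7% in siYTHDC1 relative to siSCR (log2 fold change -1.82, SE 0.11). All 10 markers listed for A549 were in the table (mean normalized counts 58.4 to 34836, lowest for EPCAM), and their log2 fold changes lay on both sides of 0, from -0.75 (ALDH1A1, SE 0.03) to 0.18 (CDH1, SE 0.12). Of 12 markers of blood, endothelial and stromal cells 4 were, with means between 7.19 and 194. These also lay on both sides of 0, from -0.60 (COL1A1, SE 0.12) to 0.77 (CDH5, SE 0.54), and the part of such cells in the values below was not tested.

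hnRNPs are abundant nuclear proteins that coat nascent transcripts through RNA recognition motifs or KH domains. They influence which splice sites are used, how RNA leaves the nucleus and how long it lasts. HNRNPA2B1 has been proposed as a reader of m6A. HNRNPC binds runs of uridine that become accessible when a nearby methyl mark loosens the RNA fold, a mechanism called an m6A switch. The comparison addresses how the transcripts of these other RNA-binding proteins stood when the nuclear m6A reader was depleted.

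The sequences of the members were read first, since YTHDC1 binds methylated adenosine and the mark is placed most often on the A of GGACT, where RNA has U for T. In the longest coding transcript of each gene, GGACT occurred in 9 of 10 members and in 93.4% of 9861 coding genes with a mean of at least 100. HNRNPM had 0. The density was 1.94 per kb in HNRNPA1, 1.78 in HNRNPL, 1.30 in HNRNPD, 1.11 in HNRNPC and 1.09 in HNRNPH1. It was 0.521 in HNRNPU, 0.350 in HNRNPA3, 0.342 in HNRNPK and 0.231 in HNRNPA2B1. The median over the coding genes was 0.906, and 5 of 10 members lay above it. These counts and densities depend on the transcript chosen. The sites printed below come from the transcript with the longest coding part. In that transcript GGACT numbered 5 rather than 8 in HNRNPA1, 2 rather than 5 in HNRNPC and 1 rather than 2 in HNRNPA3. HNRNPD and HNRNPH1 had 2 rather than 4, and HNRNPA2B1 had 0 rather than 1. HNRNPU kept 4, with 0 in its coding part, and HNRNPK, HNRNPL and HNRNPM kept their counts. How many members would lie above the median with these transcripts was not computed. A GGACT in the reference sequence is not a measured methyl mark, and only the sense strand of the transcript was searched.

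For the members that have one, the first GGACT inside the coding part whose flanks lay within 1 exon is shown, and likewise for HNRNPLL, the HNRNPL paralog whose transcript was called. The sequences are in the sense of the transcript, from GENCODE release 44 transcripts mapped to GRCh37, with GGACT in capitals.
HNRNPC (chr14:21698491-21698525, minus strand): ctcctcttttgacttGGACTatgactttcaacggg
HNRNPD (chr4:83280722-83280756, minus strand): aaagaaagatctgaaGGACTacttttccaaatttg
HNRNPK (chr9:86586226-86586260, minus strand): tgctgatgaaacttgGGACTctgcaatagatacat
HNRNPL (chr19:39336549-39336583, minus strand): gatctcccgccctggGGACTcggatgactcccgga
HNRNPH1 (chr5:179047922-179047956, minus strand): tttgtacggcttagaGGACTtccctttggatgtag
HNRNPLL (chr2:38818717-38818751, minus strand): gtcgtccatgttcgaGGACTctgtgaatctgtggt
HNRNPL and HNRNPLL both carry the word in their coding part, 4 and 2 times in the transcript with the longest coding part. Whether the word bears on any fold change was not tested.

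None of the 10 genes was called higher or lower in siYTHDC1, where a call needs a log2 fold change beyond 0.5 in either direction together with an adjusted p under 0.001 (the authors' DESeq2 Wald test, as deposited). Over the whole table the same rule called 6.76% of genes, 3.05% higher and 3.71% lower, and among the 2912 genes whose mean normalized count reached 1000, where all 10 lie, it called 3.98%. At this background the count of 0 among 10 genes says little by itself. The intervals say more: the log2 fold changes lay between -0.12 (HNRNPU) and 0.03 (HNRNPA1) with SEs of 0.03 to 0.04. Over all 10 genes the 95% intervals stayed between -0.19 and 0.11, or -12.1% to 8.04%. A change as large as the limit of 0.5 lay outside the interval of each of the 10.

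**Figure D1:**
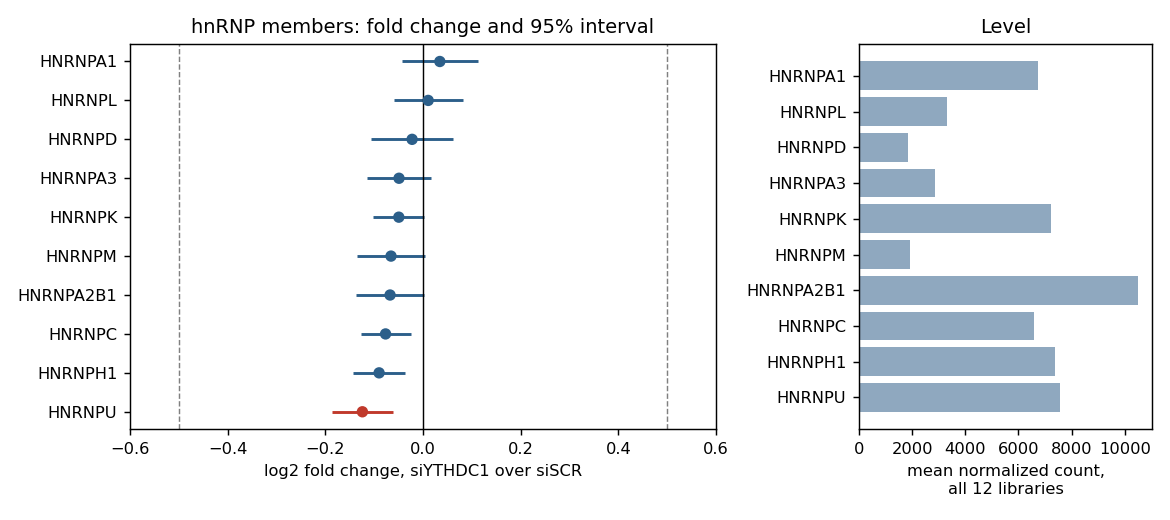
Left, log2 fold change of siYTHDC1 over siSCR (x axis) for each hnRNP gene (y axis), with points for the deposited estimates, lines for 95% intervals, dashed lines at the limit of 0.5 and red for an adjusted p under 0.001. Right, the mean normalized count over all 12 libraries. The 10 genes lie between -0.12 and 0.03, far inside the dashed lines, with HNRNPU lowest.

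Small shifts passed a limit on p alone in some members, as they did in many genes with a mean of 1000 or more. Without a limit on size, 1 of 10 genes had an adjusted p under 0.001, in the lower direction (HNRNPU), against 18.2% of all genes and 41.7% of genes at 1000 or more. Of those background genes, 9.04% of all and 19.2% of the genes at 1000 or more were lower in siYTHDC1, and 9.13% of all genes were higher. At an adjusted p under 0.05, 3 of 10 members passed (HNRNPU, HNRNPH1 and HNRNPC, all lower), against 32.1% of all genes and 60.4% at 1000 or more. The same 3 members had an unadjusted p under 0.05, against 39.3% of all genes and 66.7% at 1000 or more. Of the 1210 genes whose means lie within the range of the members, 759 had an adjusted p under 0.05 and 68.7% an unadjusted p under 0.05. Below 0 lay 8 of 10 members with a median of -0.06, where 50.3% of all genes (median -0.0023) and 46.9% of genes at 1000 or more (median 0.02) did. The genes of one family were picked together and share their libraries, so this is a description of the 10 and not a test of the family.

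No value per library stands in the table, so each fold change and p-value covers the 6 siYTHDC1 and 6 siSCR libraries together and no gene's spread between libraries can be shown. The p-values measure the spread between libraries whose origin from separate cultures the labels do not state. Fewer transcripts of a gene per cell and a smaller share of cells that hold them cannot be told apart in bulk RNA.

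Neither of the genes linked to m6A recognition was called. HNRNPA2B1 (ENSG00000122566.16, chromosome 7, 26210771 to 26241149, minus strand, GRCh37) had a mean normalized count of 10509 over all libraries. Its log2 fold change was -0.07 (SE 0.04, 95% interval -0.14 to 0.0012, adjusted p = 0.136). HNRNPC (ENSG00000092199.13, chromosome 14, 21677295 to 21737653, minus strand) encodes the protein that packages nascent RNA as a tetramer. It had a mean normalized count of 6570 and a log2 fold change of -0.08 (SE 0.03, interval -0.13 to -0.03, adjusted p = 0.0131), or -5.18% in siYTHDC1. Both values were under the limit of 0.5, and the interval of HNRNPA2B1 included 0 while that of HNRNPC did not. The difference between them was not tested.

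The A and D genes encode proteins with paired RNA recognition motifs. HNRNPA1, a shuttling protein that represses exons and sets alternative splice sites, lies on chromosome 12 (ENSG00000135486.13, 54673977 to 54680872, plus strand). Its mean normalized count was 6744 and its log2 fold change 0.03 (SE 0.04, interval -0.04 to 0.11, adjusted p = 0.578), the highest of the 10. Its close relative HNRNPA3 (ENSG00000170144.14, chromosome 2, 178077422 to 178088687, plus strand) had a mean of 2854 and lay at -0.05 (SE 0.03, interval -0.12 to 0.02, adjusted p = 0.289). HNRNPD, also known as AUF1, binds AU-rich elements that mark short-lived mRNAs. HNRNPD (ENSG00000138668.14, chromosome 4, 83273651 to 83295656, minus strand) had a mean of 1832 and the widest SE of the 10, with a log2 fold change of -0.02 (SE 0.04, interval -0.11 to 0.06, adjusted p = 0.764). All 3 intervals included 0.

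HNRNPU held the lowest value of the 10. It encodes a large protein, also called scaffold attachment factor A, that ties RNA to chromatin and also takes part in splicing. HNRNPU (ENSG00000153187.12, chromosome 1, 245003940 to 245027862, minus strand, mean normalized count 7560) lay at a log2 fold change of -0.12 (SE 0.03, interval -0.19 to -0.06, adjusted p = 0.000504). This is -8.25% in siYTHDC1, with an interval of -12.1% to -4.22%. Even so, 48.8% of genes at 1000 or more had a smaller change in either direction, so a shift of this size was common at this level. Its locus also overlaps the plus-strand gene COX20, a factor of cytochrome oxidase assembly, across 3502 bases of annotated exon. COX20 (mean normalized count 499) lay at 0.21 (SE 0.06, adjusted p = 0.000949), on the other side of 0. Whether the counting used strand is not given in the sources used here, and the part of that overlap in either value was not tested. HNRNPM, a regulator of exon skipping that binds GU-rich RNA (ENSG00000099783.7, chromosome 19, 8509651 to 8553998, plus strand), had a mean of 1906 and lay at -0.07 (SE 0.04, interval -0.14 to 0.0044, adjusted p = 0.159).

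The other 3 members recognise distinct short sequences. HNRNPL binds CA repeats (ENSG00000104824.12, chromosome 19, 39327010 to 39342987, minus strand) and, with a mean normalized count of 3321, lay closest to 0 of all members at 0.01 (SE 0.04, interval -0.06 to 0.08, adjusted p = 0.876), which became -0.0051 when fold changes were centred on the genes at 1000 or more. HNRNPK binds C-rich RNA and DNA through KH domains (ENSG00000165119.14, chromosome 9, 86582998 to 86595546, minus strand) and lay at -0.05 (SE 0.03, interval -0.10 to 0.0029, adjusted p = 0.156), with a mean of 7208. HNRNPH1 binds runs of G near splice sites (ENSG00000169045.13, chromosome 5, 179041179 to 179061785, minus strand). It had a mean of 7374 and lay at -0.09 (SE 0.03, interval -0.14 to -0.04, adjusted p = 0.00403), or -6.05% in siYTHDC1. Of these 3 genes HNRNPH1 alone had an interval that excluded 0.

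In order of fold change the members ran from HNRNPU through HNRNPH1, HNRNPC, HNRNPA2B1, HNRNPM, HNRNPK, HNRNPA3, HNRNPD and HNRNPL to HNRNPA1. The intervals of neighbours in this order overlapped in each case, so the order of neighbours is not resolved. HNRNPU and HNRNPA1, at its ends, had intervals that did not overlap. The difference between genes was not tested, since both values rest on the same libraries.

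**Figure D2:**
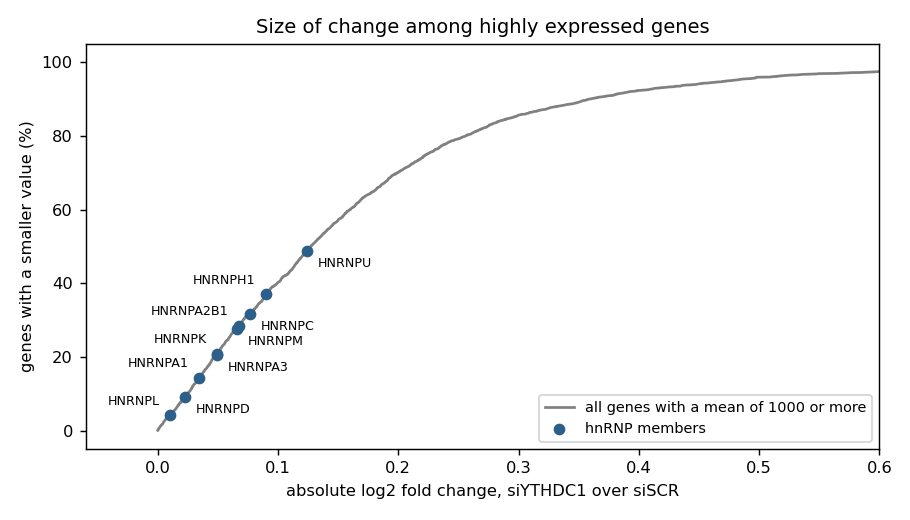
Share of the 2912 genes at a mean normalized count of 1000 or more that had a smaller absolute log2 fold change (y axis, percent) at each absolute log2 fold change of siYTHDC1 over siSCR (x axis), drawn as a grey line with the hnRNP genes as blue points. The points run from 4.09% for HNRNPL to 48.8% for HNRNPU, all in the lower part of the curve.

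The members were then set against the genes with a mean of 1000 or more, whose median mean was 1686 against 6657 for the members. The median absolute log2 fold change of the members was 0.06, against 0.13 for the genes at 1000 or more and 0.24 for all genes. For the 1210 genes whose means lie within the range of the members it was 0.125. HNRNPL had a smaller change than most: 4.09% of genes at 1000 or more were closer to 0. For HNRNPD this share was 9.24%, for HNRNPA1 14.3%, and for HNRNPH1, the second lowest fold change, 37.0%. For all 10 members this share was under 50%, which describes the 10 and was not tested. The table holds no gene with a mean under 1.52, and all 10 had a row, with means above those of at least 94.3% of genes.

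The means above are not corrected for gene length, so levels were ranked between members per kb. Per kb of annotated exon, the mean normalized count was highest for HNRNPK (1265), followed by HNRNPA1 (1007), HNRNPC (901), HNRNPA2B1 (833) and HNRNPH1 (778). HNRNPL (512), HNRNPA3 (436), HNRNPM (340), HNRNPU (336) and HNRNPD (261) were lower. The range over the 10 was 4.84-fold. HNRNPU ranked 2 by mean count but 9 per kb, since its annotated exons cover 22512 bases. Without values per library these levels have no error, and the order of close values is not resolved.

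**Figure D3:**
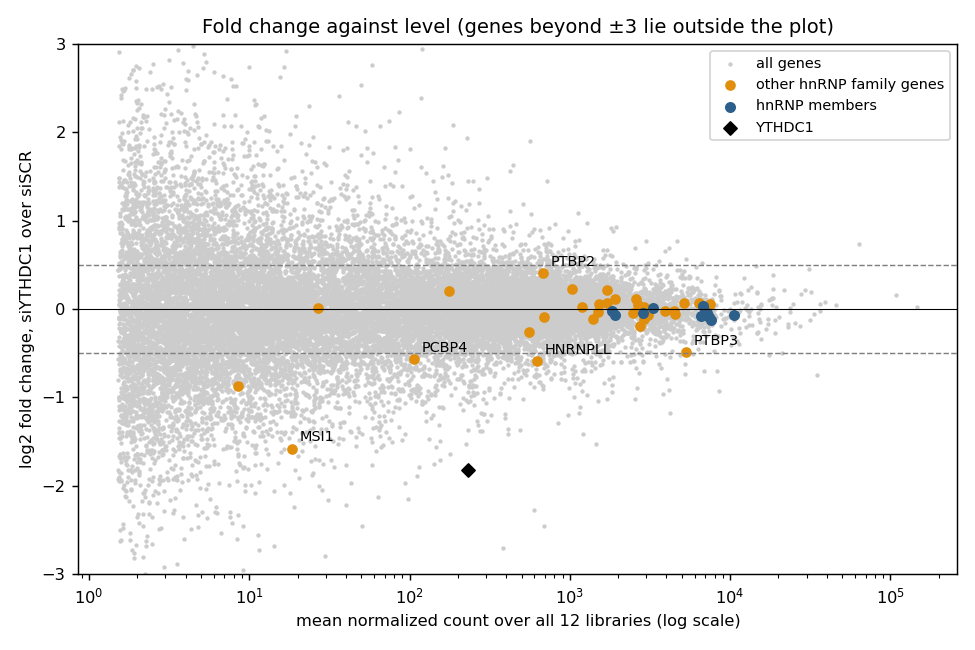
Each point is a gene, placed by its mean normalized count in the 12 libraries (x axis, on a log scale) and its log2 fold change, siYTHDC1 over siSCR (y axis), with the hnRNP genes in blue, other family genes in orange, YTHDC1 as a black diamond and all genes in grey. The blue points cluster near 0 among genes of high mean count, while HNRNPLL, PCBP4 and MSI1 lie under the lower dashed line at -0.5.

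Other genes of the family and of close RNA-binding proteins covered a wider range, from -1.58 (MSI1) to 0.40 (PTBP2) in log2 fold change. Of 34 genes listed, 32 were in the table, and HNRNPH2 and HNRNPCL1 were not analysed here. Of these, 0 were called higher, 3 lower and 29 neither, beside the background of 3.05% and 3.71% over all genes. The 3 called had means under 1000. Among the 23 with a mean of 1000 or more, 0 were called, beside 3.98% of all genes at that level. The median log2 fold change of the 32 was -0.02. Without the limit on size, 3 of the 32 were higher and 6 lower at an adjusted p under 0.001, beside 9.13% and 9.04% of all genes. Among the 23 at 1000 or more, 2 were higher and 2 lower. Of the 2912 genes at that level, 657 were higher and 558 (19.2%) lower.

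HNRNPLL fell in siYTHDC1. It encodes an HNRNPL-like protein known for setting the splicing of CD45 in T cells, and had a log2 fold change of -0.59 (SE 0.05, interval -0.69 to -0.49, adjusted p = 1.53e-28, mean normalized count 627). This is -33.5%, with the largest Wald statistic in size of the 32. Its paralog HNRNPL lay at 0.01 with an interval that ended at 0.08, so the intervals of the pair did not overlap. PCBP4, a poly(C)-binding protein of the same KH class as HNRNPK, fell as well, at -0.57 on the log2 scale (SE 0.11, adjusted p = 6.97e-06, mean 107). Its relatives PCBP1 (0.03, SE 0.04) and PCBP2 (-0.19, SE 0.04) were not called. MSI1, the Musashi protein of neural progenitors, fell in siYTHDC1, at -1.58 in log2 units (SE 0.34, adjusted p = 2.39e-05), at the low mean normalized count of 18.5. MSI2 lay at 0.06 (SE 0.04).

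The polypyrimidine tract-binding proteins, which repress exons next to pyrimidine-rich introns, went to both sides of 0 without a call. PTBP3 lay at -0.49 (SE 0.06, interval -0.60 to -0.38, adjusted p = 2.87e-16, mean 5304), just inside the limit of 0.5. PTBP2, the neuronal form, lay at 0.40 (SE 0.06, interval 0.29 to 0.52, adjusted p = 2.25e-10, mean 681), and PTBP1 at 0.07 (SE 0.03, adjusted p = 0.0898, mean 5157). The intervals of these 3 genes did not overlap each other, and differences between them were not tested. HNRNPA0, a single-exon relative of HNRNPA1, lay at 0.21 (SE 0.04, adjusted p = 1.55e-06). RALY, a relative of HNRNPC, lay at 0.23 (SE 0.05, adjusted p = 4.65e-05), against -0.08 for HNRNPC. HNRNPUL2, a relative of HNRNPU, lay at -0.26 (SE 0.06, adjusted p = 0.000324) and HNRNPUL1 at 0.06 (SE 0.03, adjusted p = 0.154). RBMX, also called hnRNP G and likewise described as binding m6A-dependent sites, lay at -0.02 (SE 0.03, adjusted p = 0.581).

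**Figure D4:**
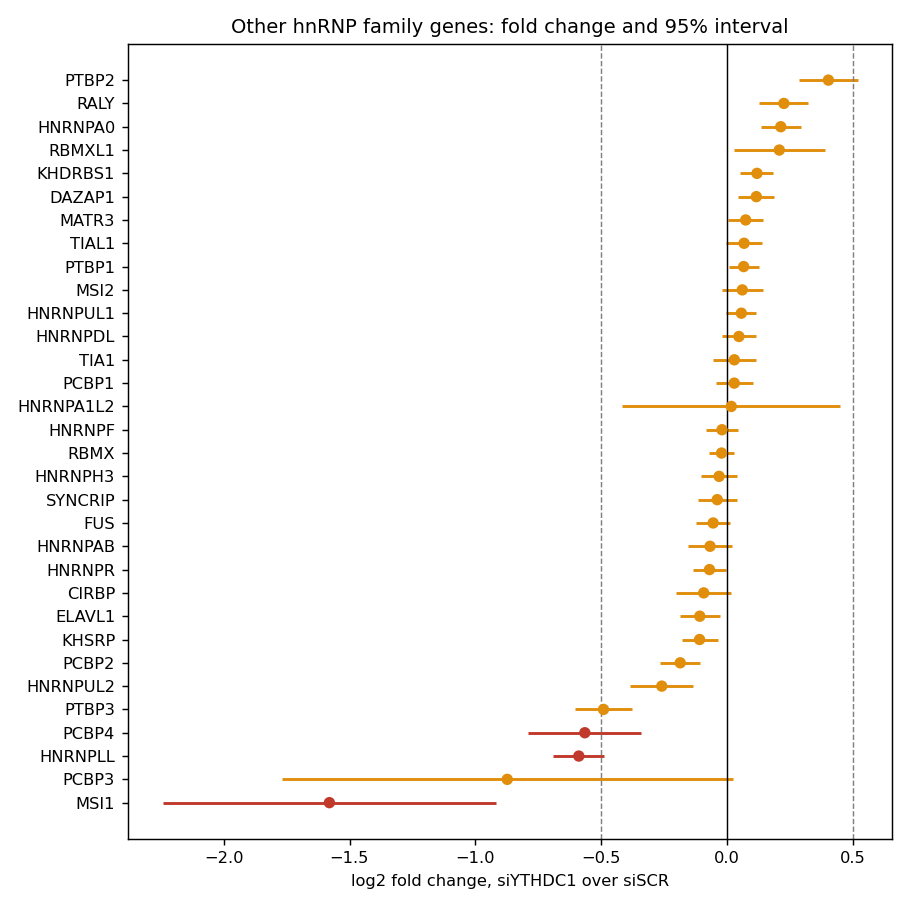
Log2 fold change of siYTHDC1 over siSCR (x axis) with 95% intervals for 32 other hnRNP family genes (y axis), ordered by value, with called genes in red and dashed lines at the limit of 0.5. MSI1, HNRNPLL and PCBP4 are called as lower, and PTBP3 reaches -0.49.

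A short list held genes that act on hnRNP proteins. TNPO2, a transportin that imports proteins such as hnRNP A1, lay at -0.19 (SE 0.04, adjusted p = 2.33e-05), and its paralog TNPO1 at 0.09 (SE 0.04, adjusted p = 0.0508). PRMT1, which methylates arginines in the glycine-rich tails of hnRNPs, lay at -0.11 (SE 0.04, adjusted p = 0.0259). None of these 3 was called, beside 6.76% of all genes, so this count says little by itself.

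hnRNP genes have many copies in the genome, and reads that match both a member and a copy leave both values uncertain. Among the copies below, HNRNPA3P2 and HNRNPLP2 are annotated as unprocessed pseudogenes, and HNRNPA1L2 and HNRNPA1P48 as coding genes. HNRNPA1L2 was also counted among the other family genes above. Copies were found by symbol alone, a member symbol followed by P, L or PS and digits, so copies under other names were not counted. The shares that follow leave such copies out. By that rule the table held 20 copies of 6 members, and for 4 members (HNRNPA2B1, HNRNPD, HNRNPM and HNRNPU) none. HNRNPA1 had 9 copies with a summed mean normalized count of 124, or 1.84% of its own. The corresponding share was 1.12% for HNRNPC (2 copies), 0.503% for HNRNPA3 (4 copies), 0.298% for HNRNPH1, 0.268% for HNRNPL and 0.264% for HNRNPK. Identity to the parent transcript ran between 83.2% (HNRNPH1P1) and 99.6% (HNRNPA3P6), and 4 copies were at 99% or more. HNRNPA1P7 shared a stretch of 652 bases with HNRNPA1 without a difference. How such reads were counted is not given in the sources used here, and their part in the members' values was not tested. Of the 20 copies 1 was called and 19 were not, beside 6.76% called over all genes. At this background 1 call among 20 says little by itself. The intervals of 18 copies included 0. Apart from HNRNPH1P1, the copies with a mean of at least 10 lay between -0.31 (HNRNPKP4) and 0.22 (HNRNPA1P7).

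**Figure D5:**
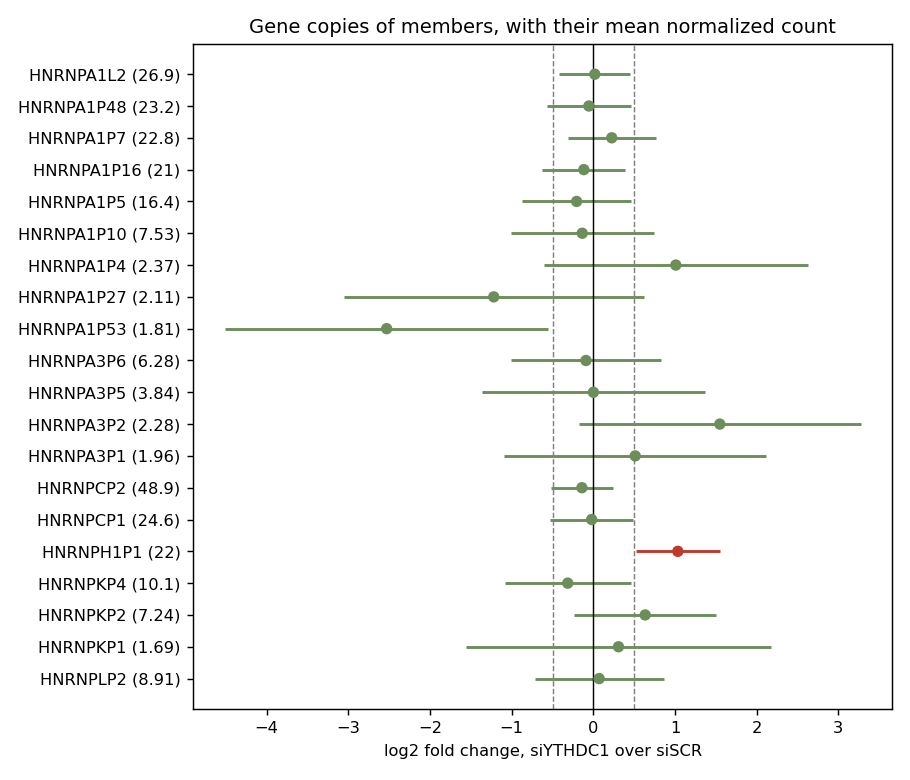
Log2 fold change of siYTHDC1 over siSCR (x axis) with 95% intervals for 20 gene copies of members (y axis, mean normalized count in brackets), with the called copy in red and dashed lines at the limit of 0.5. HNRNPH1P1 is at 1.03 with an interval above 0.5, and the intervals widen toward copies with few counts.

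The called copy was HNRNPH1P1, a processed pseudogene of HNRNPH1 on chromosome 6 (160133833 to 160135017, minus strand). It rose in siYTHDC1, at 1.03 in log2 units (SE 0.26, interval 0.52 to 1.55, adjusted p = 0.000519) at a mean normalized count of 22.0, while HNRNPH1 lay at -0.09. Of the 20 copies it was the least like its parent. The longest stretch without a difference was 30 bases, against 40 or more in the other copies. The 120 aligned bases of 1 exon with the most differences are printed to show how far the pair has diverged, with the 21 differing positions in capitals.
HNRNPH1P1 (chr6:160134511-160134630, minus strand): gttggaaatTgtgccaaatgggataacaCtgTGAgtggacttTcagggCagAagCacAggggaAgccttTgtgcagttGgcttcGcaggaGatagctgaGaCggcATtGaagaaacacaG
HNRNPH1 (chr5:179046288-179046407, minus strand): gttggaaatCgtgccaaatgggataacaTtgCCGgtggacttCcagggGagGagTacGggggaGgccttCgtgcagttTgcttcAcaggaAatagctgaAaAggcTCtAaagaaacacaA
HNRNPA1P53 lay at -2.53 with an SE of 1.01 at a mean of 1.81 and was not called (adjusted p = 0.0397).

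Genes that overlap members were read for the same reason. Of 9 such genes in the table, at 7 members, 0 were called, beside 6.76% of all genes, so this count says little by itself. Their log2 fold changes lay between -0.47 and 0.37, and 7 shared annotated exon bases. The ends of this range were RP11-575L7.8 (mean 13.4, SE 0.39) and RP11-127B20.3 (mean 6.72, SE 0.50). Both are non-coding RNAs at low counts, and their intervals included 0. CBX3, which lies head to head with HNRNPA2B1, shares 368 exon bases with it and encodes a heterochromatin protein, lay at -0.09 (SE 0.03, adjusted p = 0.0319), close to HNRNPA2B1 at -0.07. NFE2L2, the gene of the oxidant response factor NRF2, shares 3509 exon bases with HNRNPA3 on the opposite strand and lay at 0.11 (SE 0.04, adjusted p = 0.0190), with HNRNPA3 at -0.05. NFE2L3, opposite HNRNPA2B1, lay at 0.22 (SE 0.11, adjusted p = 0.119).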

How the data were processed

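The libraries were made after rRNA removal with a stranded kit. The authors aligned the reads to hg19 (STAR), took counts of genes from HTSeq with an earlier GENCODE annotation, and compared siYTHDC1 with siSCR in DESeq2, with sequencing batch as an added term. The deposited table gives each gene a row and holds no value of a single library. Its signal, as deposited by the authors, is the mean count after normalization over all libraries. The log2 fold change and its SE are those the authors deposited. The sign was read as siYTHDC1 over siSCR, since YTHDC1 was negative. The deposited Wald statistic is a score that equalled the fold change divided by its SE within 9.14e-05. The deposited p-value and adjusted p-value were used, and the adjusted values were equal to a Benjamini-Hochberg adjustment over the 22564 rows. No column holds counts, so no count model was run and depth per library is unknown. These columns are the authors' own comparison, and no independent fit was possible. Batch membership per library was not given in the labels, so values within batches could not be computed.

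The thresholds were those of the methods. Intervals of 95% were taken from the SE under a normal distribution. The members and lists were chosen with earlier results of these data known. Named were the members, YTHDC1 and family genes called or among the 6 largest statistics. Of the copies of members with a mean of at least 10 and of the genes overlapping members, only some were named in the text. PTBP1, PCBP1, PCBP2, MSI2, HNRNPUL1, HNRNPUL2, RALY and RBMX were added after their values were seen, as relatives of those, HNRNPA1P53 and HNRNPA3P6 as extreme copies, and COL1A1, CDH5, ALDH1A1 and CDH1 as extreme markers. Annotation and transcripts were GENCODE release 44 mapped to GRCh37, which matched 21798 IDs (96.6%) without version numbers, and may differ from the authors' release. Copies were aligned locally to each coding transcript of the parent, best score kept (Biopython 1.88). Alternatives for calls were an adjusted p of 0.05, other limits on size, a test of a change over 0.5, a statistic divided by its robust spread (2.14), centring, and filters of 10 and 100 on the mean. The call rules, not the authors' test itself, were tested on simulated data (fold changes drawn from the deposited SEs). Scripts ran in Python 3.11.15, with pandas 2.3.3 and numpy 2.4.6 for tables, statsmodels 0.14.6 and scipy 1.17.1 for p-values, and matplotlib 3.10.9 for plots.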

Additional observations from a re-analysis of the deposited data

How the results depend on the processing

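The count of hnRNP genes called stayed at 0 under 8 of 9 alternatives, among them an adjusted p of 0.05 and a limit of 0.3 on the fold change, and was 1 (HNRNPU) with no limit on size. All 8 kept a limit of 0.3 or more on size, and the largest change of a member was that of HNRNPU, at -0.12. Those 8 could therefore give no other count, and they do not show how firm the 0 is. Over the whole table, 1525 genes were called, and the count was 2493 at an adjusted p under 0.05, 4101 with no limit on size, 2719 with a limit of 0.3, 539 with a limit of 1, 279 in a test of a change larger than 0.5, 372 with the statistic divided by its robust spread and 800 among genes at 100 or more. Centring on genes at 100 or more moved fold changes by 0.01, which put HNRNPL at -7.4e-05, and centring on genes at 1000 or more put it at -0.0051, so its sign is not resolved. The other 9 members kept their sign and stayed uncalled. With the statistic divided by its robust spread, the members with the largest values in size were HNRNPU (-1.83), HNRNPH1 (-1.55) and HNRNPC (-1.37). No symbol of a member had a further row. Ranks by level moved with the length used. HNRNPK was first per kb of exon and per kb of the longest coding transcript, a length chosen after seeing the data. No paired analysis was possible because the table has no column per library, and leaving out a replicate, other normalization and another tool were not run for the same reason. Of the genes named as called, HNRNPH1P1 and MSI1 rest on mean normalized counts of 22.0 and 18.5. The intervals of HNRNPLL (-0.69 to -0.49) and PCBP4 (-0.79 to -0.34) included -0.5. With a limit of 1 on size, HNRNPLL (-0.59) and PCBP4 (-0.57) fall short of a call. MSI1 and HNRNPH1P1 are removed by the filter of 100 on the mean. Each of these genes thus loses its call under at least 1 alternative, and their calls under the others were not listed singly.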
